A study of Mus musculus with 8 samples.

Results

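The epicardial markers described here are 10 genes commonly used to recognise the outer cell layer of the heart: Wt1, Tbx18, Aldh1a2, Upk3b, Upk1b, Msln, Lrrn4, Krt19, Krt8 and Krt18. They were taken by gene symbol from 37982 genes measured by RNA sequencing, and each symbol matched 1 gene. The list was chosen with earlier results of these data known. The tissue was heart ventricle, without atria, from C57BL/6 mice at postnatal day 7. The labels give 2 wild-type samples, 3 samples of a double mutant and 3 of a triple mutant. As known from the study, the double mutant carried altered Mkl2, which encodes a coactivator of serum response factor, and altered Myh7, which encodes the beta myosin heavy chain. The triple mutant carried both of these and altered Nkx2-5, a homeodomain factor of heart muscle. The allele of each gene, the sex of the pups and whether samples were pooled are not given in the labels used here.

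The epicardium is a mesothelium, a single sheet of flat epithelial cells on the heart surface. In the embryo some of its cells leave the sheet through an epithelial to mesenchymal transition and become fibroblasts and mural cells of the coronary vessels. The sheet also makes retinoic acid and secreted growth factors for the muscle below. Wt1 and Tbx18 encode transcription factors of this layer, Aldh1a2 a retinoic acid synthase, Upk3b, Upk1b, Msln and Lrrn4 membrane proteins typical of mesothelium, and Krt8, Krt18 and Krt19 keratins of simple epithelia.

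The deposited values are 1 FPKM (fragments scaled by transcript length and library size) for each gene and group, so levels can be set side by side between genes but carry no spread over samples. Read depth is unknown. Differences were read from the authors' own Cuffdiff test at a q-value (adjusted over all tested genes and all 3 comparisons) under 0.05. Of the 10 markers, 6 were tested in all 3 comparisons. Lrrn4 was tested in the comparisons with the triple mutant only, and Upk1b, Msln and Krt8 were tested in none. No count of called markers below is therefore over all 10.

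Promoter sequence was taken for the 3 tested markers with the largest differences, Aldh1a2, Krt18 and Upk3b, and for Krt8, whose protein pairs with that of Krt18. Each window runs from 250 bases before the RefSeq gene start to 50 bases after it, 5′ to 3′ on the gene's strand, in the GRCm38.p6 build. Capitals mark a nuclear receptor core site (AGGTCA, the core bound by retinoic acid receptors and other nuclear receptors) or a TEAD element (GGAATG, which reads CATTCC on the opposite strand). The windows are at chr9:71215539-71215838 on the plus strand for Aldh1a2, chr15:102027966-102028265 on the plus strand for Krt18, chr15:102004293-102004592 on the minus strand for Krt8 and chr5:136038246-136038545 on the plus strand for Upk3b.
Aldh1a2: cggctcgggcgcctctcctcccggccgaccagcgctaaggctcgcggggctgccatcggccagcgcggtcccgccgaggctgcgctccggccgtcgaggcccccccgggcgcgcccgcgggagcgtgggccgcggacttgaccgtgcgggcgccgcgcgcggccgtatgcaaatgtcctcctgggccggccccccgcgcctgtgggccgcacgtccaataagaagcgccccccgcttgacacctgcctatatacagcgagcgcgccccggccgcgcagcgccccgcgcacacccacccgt
Krt18: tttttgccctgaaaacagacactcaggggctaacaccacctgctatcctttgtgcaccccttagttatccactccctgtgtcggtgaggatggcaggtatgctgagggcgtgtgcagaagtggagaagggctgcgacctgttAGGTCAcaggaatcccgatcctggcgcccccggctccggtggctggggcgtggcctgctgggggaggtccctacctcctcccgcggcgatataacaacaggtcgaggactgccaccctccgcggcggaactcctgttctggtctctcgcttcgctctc
Krt8: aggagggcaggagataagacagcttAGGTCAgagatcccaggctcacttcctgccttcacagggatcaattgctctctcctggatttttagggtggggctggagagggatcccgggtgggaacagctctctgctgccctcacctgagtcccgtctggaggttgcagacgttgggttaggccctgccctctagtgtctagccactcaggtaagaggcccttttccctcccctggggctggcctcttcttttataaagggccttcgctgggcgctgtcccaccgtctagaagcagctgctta
Upk3b: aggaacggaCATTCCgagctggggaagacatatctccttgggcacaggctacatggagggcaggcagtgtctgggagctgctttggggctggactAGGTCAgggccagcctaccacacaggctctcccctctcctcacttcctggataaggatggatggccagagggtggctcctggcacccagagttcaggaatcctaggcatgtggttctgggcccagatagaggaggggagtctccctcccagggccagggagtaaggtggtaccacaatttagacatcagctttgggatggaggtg

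The Aldh1a2 window stood apart in base composition. It was 78.0% G or C, a higher share than in 98.1% of 32851 RefSeq mouse promoter windows, and it held 50 CpG dinucleotides against a median of 7 over all windows. The Krt18 window was 61.3% G or C with 17 CpG, the Krt8 window 58.0% with 6 and the Upk3b window 58.7% with 2, beside a median of 52.7% G or C over all windows. RefSeq windows were matched for 6 markers, the others being Lrrn4 and Tbx18. The nuclear receptor core site was found in 4 of the 6, at 108 bases before the start in Krt18, 225 in Krt8, 155 in Upk3b and 8 in Lrrn4, and 16.3% of all windows hold it. The TEAD element was found in Upk3b and Lrrn4, and in 14.7% of all windows. An NKX element (TNAAGTG) lay 11 bases after the start of Tbx18 only, and 11.5% of all windows hold one. No window of the 6 held the CArG box of serum response factor (1.63% of all windows), the T-box site AGGTGTGA (1.28%) or the GC box GGGCGG (35.7%). Both strands were searched for each motif, and a match describes letters in the window, not binding.

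In wild-type ventricle the markers covered a wide range of levels. Wt1 (13.97 FPKM), Aldh1a2 (12.6 FPKM) and Tbx18 (9.31 FPKM) were the highest, Krt18 (5.68 FPKM) came next, and Upk3b (2.29 FPKM) and Krt19 (1.96 FPKM) followed. Lrrn4 (1.16 FPKM), Msln (1.12 FPKM), Upk1b (0.708 FPKM) and Krt8 (0.573 FPKM) were near or under 1 FPKM. The transcription factors and the retinoic acid synthase thus stood above all mesothelial surface proteins in level. The order was the same in both mutants except that Aldh1a2 stood above Wt1 there. With no spread over samples, neighbours in this order cannot be separated. The levels summed over the 10 markers were 49.4 FPKM in the wild type, 53.4 FPKM in double mutants and 53.1 FPKM in triple mutants. Without Aldh1a2 the sums were 36.8, 33.6 and 36.1 FPKM.

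**Figure D1:**
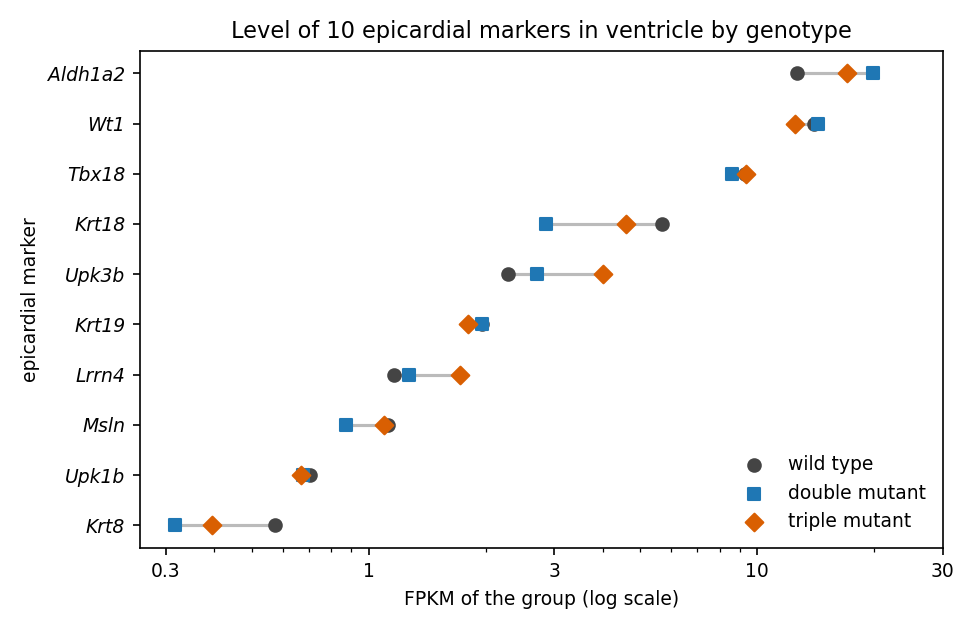
FPKM of each of the 10 epicardial markers (horizontal log axis) in wild type (circles), double mutant (squares) and triple mutant (diamonds), 1 value per group, with a line joining the lowest and highest group. The groups lie close together for Wt1 and Tbx18, while Aldh1a2 runs from 12.6 FPKM in the wild type to 19.8 FPKM in double mutants and Krt18 from 5.68 down to 2.86 FPKM.

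The label was set beside genes of neighbouring cell types, with no test. All 10 markers had an FPKM above 0 in every group. That is a low bar: Krt8, the lowest, stood above 60.4% of all genes in the wild type, 57.7% in double mutants and 58.8% in triple mutants. Of 16 other epicardial and mesothelial genes, 5 stayed under 1 FPKM in every group, and the mesothelial transcription factor gene Bnc1 was low, at 1.24 FPKM in the wild type, 0.383 FPKM in double mutants and 0.700 FPKM in triple mutants. Of 7 lung epithelial markers, which would mark lung tissue carried along, 5 were at 0 in every group and the summed level of all 7, to which only Foxj1 and Cldn18 added, was at most 0.0743 FPKM. Epcam, the general epithelial adhesion gene, and Krt5 were at 0 in every group. Several markers are not limited to the epicardium in the heart: Wt1 is also known in endothelial cells and Tbx18 in mural cells. Which cells the Aldh1a2 and Krt18 reads came from was not tested, so their differences cannot be assigned to epicardial cells. In bulk tissue, fewer cells of a type and less RNA per cell cannot be told apart.

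Double mutant against wild type compares mice with altered Mkl2 and Myh7, without the Nkx2-5 allele, to wild type. Sex-linked genes also differed between these groups (given below), so sex and genotype cannot be told apart here. This comparison is the only one in which tested markers passed the q-value threshold. Missing that threshold in the other comparisons does not show that markers stayed level there. Aldh1a2 rose and Krt18 fell, while Wt1, Tbx18, Upk3b and Krt19 did not pass the test. The authors' deposited table called 2 of 6 tested markers, 1 higher and 1 lower, where 2.65% of 13034 tested genes were called, 1.89% higher and 0.767% lower. The same 2 markers were called at the 0.1 mark that the authors use, beside 4.41% of all tested genes. The median log2 fold change of the 6 markers was 0.02, and over all tested genes it was -0.004.

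Aldh1a2 lies on chromosome 9 at 71063596 to 71144050 (mm9, plus strand) and encodes the retinaldehyde dehydrogenase that makes most of the retinoic acid of the embryonic epicardium. Its level was 12.6 FPKM in the wild type, 19.8 FPKM in double mutants and 17.0 FPKM in triple mutants, so both mutant groups were above wild type. The rise in the double mutant was 1.57-fold in the authors' deposited table (log2 fold change 0.65, p = 5e-05, q = 0.0066). That p is the lowest in the table. The standard error it implies on the log2 scale is at most 0.16, which gives a 95% interval of 1.26-fold to 1.96-fold. The intervals given here and below rest on the deposited p-values. Taken from the deposited statistic instead, standard errors were 1.59 to 2.22 times as large, and the intervals that left out no change were 2 of 20 (Aldh1a2 and Krt18 in the double mutant) in place of 7 of 20. The ratio of Aldh1a2 to Wt1 FPKM was 0.904 for the wild type, 1.39 for double mutants and 1.36 for triple mutants.

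Krt18 lies on chromosome 15 at 101858647 to 101862457 (plus strand) and encodes the type I keratin that forms filaments with keratin 8. Its level was 5.68 FPKM in the wild type, 2.86 FPKM in double mutants and 4.59 FPKM in triple mutants, so the double mutant was the low group. The fall in the double mutant was 1.98-fold in the authors' deposited table (log2 fold change -0.99, p = 1.5e-04, q = 0.0150). With the implied standard error of 0.26, the 95% interval of the log2 fold change ran from -1.50 to -0.48. Read as a standard normal value, the statistic in the same table would give both genes a q-value of 0.99996, a reading that calls 9 of all 13034 tested genes.

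The other keratins gave no second called gene. Krt8, 23873 bases from Krt18 on chromosome 15 (101827142 to 101834773, minus strand), had 0.573 FPKM in the wild type, 0.316 FPKM in double mutants and 0.394 FPKM in triple mutants. Its lowest group was also the double mutant, 1.81-fold below wild type in FPKM, but the authors did not test it, and reads of its processed pseudogenes may be shared with it. The ratio of Krt18 to Krt8 was 9.91 for the wild type, 9.05 for double mutants and 11.7 for triple mutants. Krt19 (chromosome 11, 100002124 to 100009979, minus strand), a type I keratin of simple epithelia and mesothelium, had 1.96 FPKM in the wild type, 1.96 FPKM in double mutants and 1.797 FPKM in triple mutants. The log2 fold change of Krt19 from wild type to double mutant was 0.001 in the authors' deposited table (q = 0.999). The standard error implied by its p-value was 0.51, so the interval was wide. A change of up to 2.01-fold in either direction lay inside that interval. Of 14 other keratin and epithelial junction genes, 11 were under 1 FPKM in every group and Krt80 was the only one tested, with 1.67 FPKM in the wild type, 1.41 FPKM in double mutants and 2.38 FPKM in triple mutants. The junction gene Ocln had 1.09 FPKM in the wild type, 0.159 FPKM in double mutants and 0.482 FPKM in triple mutants, and it was not tested.

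The transcription factor genes were close to level across genotypes. Wt1 (chromosome 2, 104966686 to 105013773, plus strand), a zinc finger factor needed for the epicardium to form, had 13.97 FPKM in the wild type, 14.3 FPKM in double mutants and 12.5 FPKM in triple mutants. Tbx18 (chromosome 9, 87597635 to 87626095, minus strand), a T-box factor of the epicardium and sinus node, had 9.31, 8.58 and 9.36 FPKM in the same order of groups. In the authors' deposited table the double mutant differed from wild type by 1.03-fold for Wt1 (interval 0.817-fold to 1.29-fold, q = 0.974) and by 0.921-fold for Tbx18 (0.757-fold to 1.12-fold, q = 0.866). The antisense gene next to Wt1, Wt1os, starts 18 bases away and had 1.07 FPKM in the wild type, 0.496 FPKM in double mutants and 0.641 FPKM in triple mutants, with no test.

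**Figure D2:**
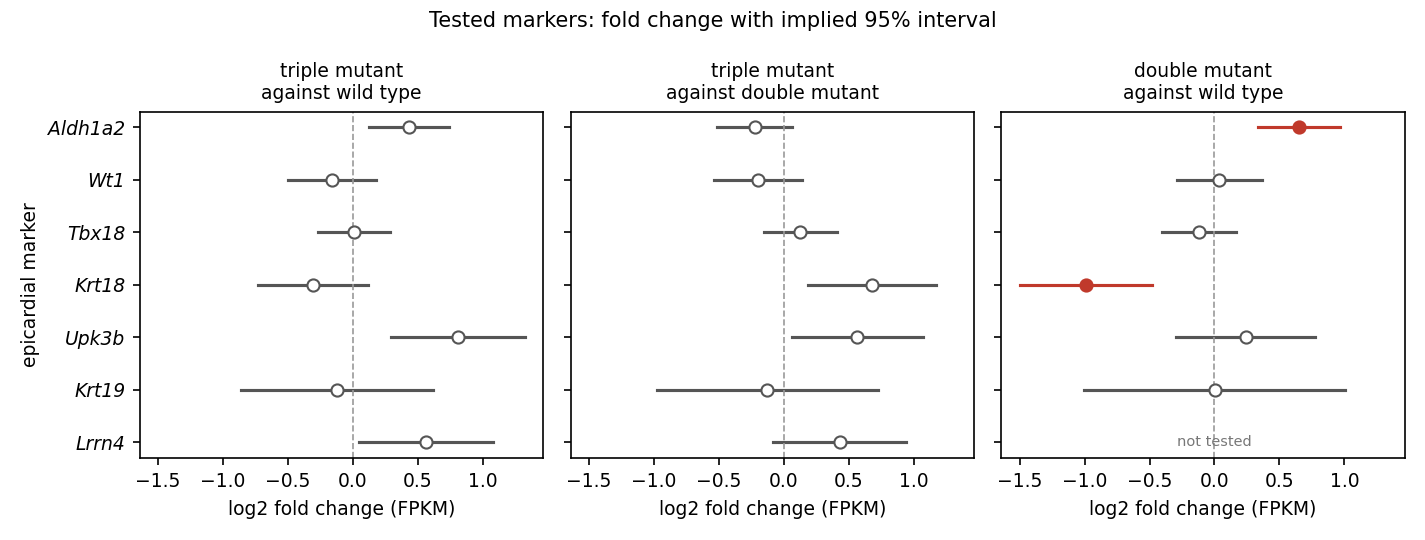
Log2 fold change of FPKM (horizontal axis) of the 7 tested markers in the 3 comparisons, with the 95% interval from the standard error that the deposited p-value implies. Filled red points passed a q-value of 0.05: only Aldh1a2 (0.65) and Krt18 (-0.99), both in the double mutant against wild type.

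Triple mutant against wild type is the comparison that the series' design text ties to disease, although the labels give no phenotype of the samples. Upk3b had the largest difference among the markers and Aldh1a2 and Lrrn4 were also higher in the triple mutant, but none passed the threshold. Cuffdiff called 0 of 7 tested markers in the authors' deposited table, beside 1.52% of 12986 tested genes. At an unadjusted p under 0.05 there were 3 of 7, beside 12.1% of all tested genes. At the 0.1 mark, 1 marker, Upk3b, was called, beside 2.75% of all tested genes. The median log2 fold change was 0.01 over the 7 markers and -0.003 over all tested genes.

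Upk3b (chromosome 5, 136514366 to 136521173, plus strand) encodes uroplakin 3B, a membrane protein of urothelium and mesothelium. It had 2.29 FPKM in the wild type, 2.70 FPKM in double mutants and 4.01 FPKM in triple mutants, the triple mutant being the high group. The triple mutant stood 1.75-fold above wild type in the authors' deposited table (interval 1.23-fold to 2.503-fold, p = 0.0021, q = 0.0808). With the standard error from the statistic, its log2 interval was -0.06 to 1.67 and held 0. The FPKM ratio of Upk3b to Wt1 was 0.164 for the wild type, 0.189 for double mutants and 0.321 for triple mutants. Lrrn4 (chromosome 2, 132694041 to 132706627, minus strand), which encodes a leucine-rich repeat membrane protein, had the same order of groups, with 1.16 FPKM in the wild type, 1.27 FPKM in double mutants and 1.71 FPKM in triple mutants. In the authors' deposited table its triple mutant value was 1.48-fold that of wild type (interval 1.03-fold to 2.12-fold, p = 0.0333, q = 0.335).

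The other mesothelial surface genes did not share that order. Upk1b (chromosome 16, 38773297 to 38800316, minus strand), a tetraspanin uroplakin, had 0.708 FPKM in the wild type, 0.677 FPKM in double mutants and 0.669 FPKM in triple mutants. Msln (chromosome 17, 25885559 to 25891272, minus strand), which encodes the surface protein mesothelin, had 1.12, 0.875 and 1.09 FPKM in that order. Neither was tested. Among the other uroplakin genes, Upk2 and Upk3a were at 0 in every group and Upk1a had at most 0.537 FPKM.

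For Aldh1a2, the authors' deposited table placed the triple mutant 1.35-fold above wild type (interval 1.09-fold to 1.67-fold, p = 0.0062, q = 0.147), in the same direction as the double mutant. Krt18 had a log2 fold change of -0.31 (interval -0.73 to 0.12, q = 0.645). Wt1 (-0.16, q = 0.828), Tbx18 (0.01, q = 0.992) and Krt19 (-0.12, q = 0.964) were nearer to 0 in that table.

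**Figure D3:**
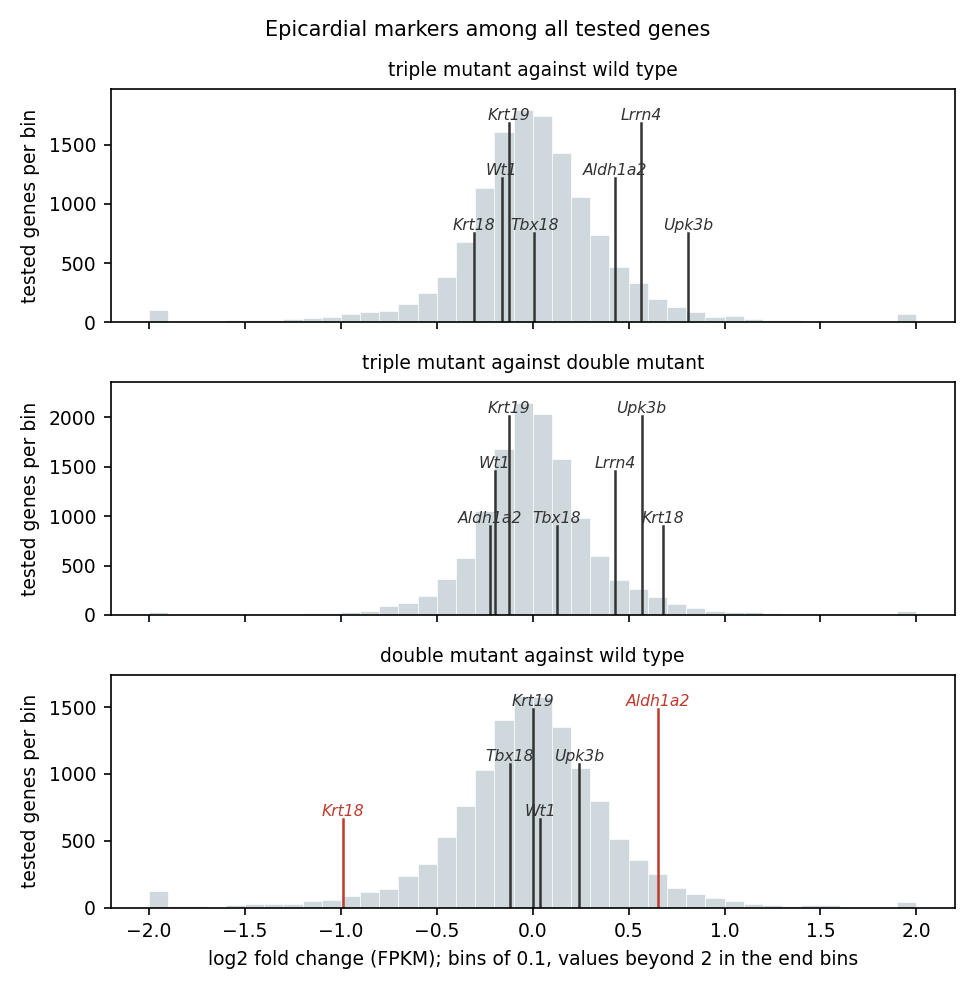
Distribution of the log2 fold change of FPKM over all tested genes (grey bars, bins of 0.1) in the 3 comparisons, with the tested epicardial markers as vertical lines whose height only separates the names. Markers past a q-value of 0.05 are red: Aldh1a2 and Krt18 in the double mutant against wild type, which lie in opposite tails. Some markers without a call lie as far out. Upk3b for triple mutant against wild type stands above 97.4% of tested genes and Krt18 for triple against double mutant above 96.6%. The called Aldh1a2 stands above 94.9%. Wt1, Tbx18 and Krt19 lie nearer the centre.

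Triple mutant against double mutant compares groups whose genotypes differ by the altered Nkx2-5. Xist differed between them too (given below), so sex and genotype cannot be told apart here either. Krt18 and Upk3b had the largest differences, both higher in the triple mutant, and neither passed the threshold. The authors' deposited table, made with Cuffdiff, called 0 of 7 tested markers at 0.05 and 0 at 0.1, beside 1.25% and 1.98% of 12786 tested genes. At an unadjusted p under 0.05 there were 2 of 7, beside 8.45% of all tested genes. Krt18 in the authors' deposited table was 1.60-fold higher in the triple mutant (interval 1.14-fold to 2.26-fold, p = 0.0068, q = 0.155), so its level in the triple mutant stood between those of the double mutant and wild type. Upk3b in the authors' deposited table was 1.48-fold higher (1.05-fold to 2.10-fold, p = 0.027, q = 0.305). Aldh1a2 had a log2 fold change of -0.22 (interval -0.51 to 0.07, q = 0.597). Lrrn4 (0.43, q = 0.539), Tbx18 (0.13, q = 0.845), Wt1 (-0.20, q = 0.752) and Krt19 (-0.12, q = 0.969) also missed it. The median over the 7 markers was 0.13 and over all tested genes -0.001. The 3 comparisons share their groups, so a high or low value of 1 group enters a pair of them.

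The 16 other epicardial and mesothelial genes held no called gene in any comparison of the authors' deposited table, where 1.25% to 2.65% of all tested genes were called. Between 9 and 10 of them were tested, with a median log2 fold change of 0.09 from wild type to triple mutant, 0.17 from double to triple and -0.02 from wild type to double. Nkain4, a membrane protein gene of mesothelium, had the widest difference among the tested genes, with 6.08 FPKM in the wild type, 12.1 FPKM in double mutants and 8.80 FPKM in triple mutants (1.99-fold in the double mutant, q = 0.282). Its locus is listed with the same coordinates for another gene, so its reads may be split. Tcf21, a factor of epicardium-derived fibroblasts, was the most abundant, with 68.8 FPKM in the wild type, 88.6 FPKM in double mutants and 67.7 FPKM in triple mutants (q = 0.183 for the double mutant).

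No other gene of the retinoic acid pathway passed a deposited q-value of 0.05, and 1, Rxrg, passed it with q-values adjusted within a comparison. Of 18 genes, 7 stayed under 1 FPKM in every group, among them the Cyp26 genes, whose enzymes degrade retinoic acid. Aldh1a2 was by far the most abundant of the synthases: its FPKM was 11.7 times that of Aldh1a1 and 9.47 times that of Aldh1a3 in the wild type, 14.3 and 12.4 times for double mutants, and 18.1 and 13.8 times for triple mutants. Of the retinoic acid genes in the authors' deposited table, 0 of 10 tested genes were called between wild type and double mutant, 0 of 10 between double and triple mutant and 0 of 9 between wild type and triple mutant. The shares called over all tested genes were 2.65%, 1.25% and 1.52% in the same order. Rxrg, a retinoid X receptor gene, came nearest, with 3.77 FPKM in the wild type, 6.23 FPKM in double mutants and 3.68 FPKM in triple mutants (q = 0.0695 between double mutant and wild type, q = 0.0511 between triple and double mutant). Both are under the 0.1 mark, and with adjustment within the comparison they were 0.0483 and 0.0745. The more abundant Rxra had 22.0, 25.1 and 20.1 FPKM and Dhrs3, a retinaldehyde reductase gene, 20.9, 18.8 and 18.3 FPKM. All 10 tested genes had a log2 fold change under 0 for triple against double mutant, with a median of -0.30, beside 6415 of 12786 tested genes under 0. For double mutant against wild type the median was 0.15, with 6 above 0 and 4 below. For triple mutant against wild type it was -0.13, with 1 above 0 and 8 below, beside 6542 of 12986 tested genes below 0.

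Of 21 entries for 20 genes of secreted epicardial factors and their receptors (Fgfr1 has 2 entries), 18 were tested in each comparison. For triple against double mutant 2 were called, beside 1.25% of all tested genes. For triple mutant against wild type and double mutant against wild type 0 were called, beside 1.52% and 2.65%. Tgfb1, a growth factor gene that drives epicardial cells towards mesenchyme, had 9.93 FPKM in the wild type, 14.6 FPKM in double mutants and 8.98 FPKM in triple mutants. By the authors' deposited table it fell 1.62-fold from double to triple mutant (q = 0.0184). Cxcl12, a chemokine gene of the coronary vessels and epicardium, had 43.4, 45.6 and 32.1 FPKM and fell 1.42-fold (q = 0.0458). Adjusted within the comparison its q-value was 0.0673, which ends the call. The most abundant genes of the list, the growth factor gene Igf2 (504, 445 and 453 FPKM) and Tmsb4x (407, 358 and 330 FPKM), which encodes an actin-binding peptide, were not called in any comparison. Of 10 factors of the epithelial to mesenchymal transition, 3 (Zeb1, Cdh2 and Vim) are listed at 0 because the authors' program marked too many fragments, and Twist1 was the only called gene. It had 2.86 FPKM in the wild type, 5.38 FPKM in double mutants and 4.61 FPKM in triple mutants, a rise of 1.88-fold in the double mutant (q = 0.0496, in the authors' deposited table). For double mutant against wild type it was 1 of 5 tested genes of its list, beside 2.65% of all tested genes called. The most abundant genes of this list were Zeb2, a repressor of epithelial genes (83.5, 82.1 and 75.1 FPKM), and the fibronectin gene Fn1 (76.2, 66.4 and 63.0 FPKM), with no call. Cdh1, the epithelial cadherin gene, was at or near 0 in every group. These lists are given by their counts and medians only and had no test of their own.

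**Figure D4:**
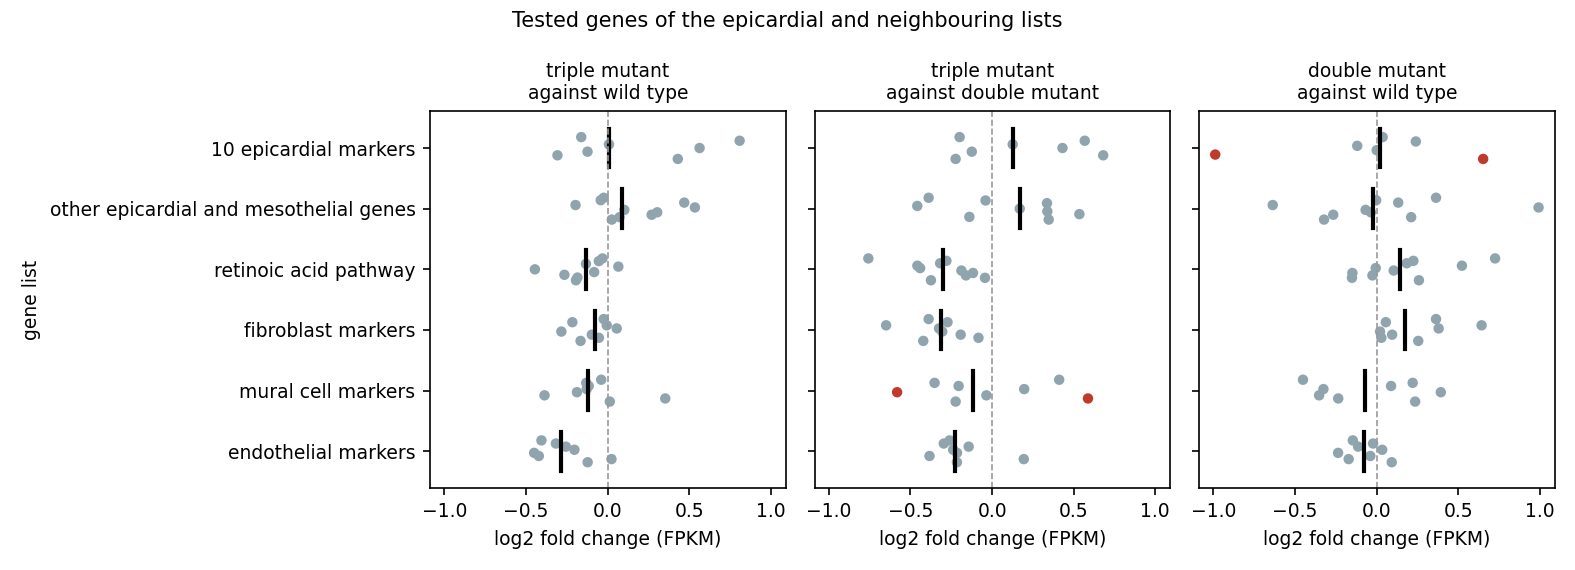
Log2 fold change of FPKM of every tested gene (points) of 6 gene lists in the 3 comparisons, with the median of each list as a black bar and genes past a q-value of 0.05 in red. All 8 tested fibroblast markers lie above 0 for double mutant against wild type and below 0 for triple against double mutant, while the epicardial markers lie on both sides of 0.

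Markers of other cells of the ventricle are set beside the Aldh1a2 and Krt18 results. In the double mutant, 8 of 8 tested fibroblast markers were above wild type (median log2 fold change 0.18), beside 6446 of 13034 tested genes. The authors' deposited table called 0 of them, beside 2.65% of all tested genes. Tcf21 is counted both here and among the other epicardial and mesothelial genes. The summed level of the 8 fibroblast markers was 650 FPKM in the wild type, 769 FPKM in double mutants and 609 FPKM in triple mutants. Of the 10 fibroblast markers listed, the other 2 were marked as having too many fragments and enter neither the count nor the sum. The widest difference was that of Mfap5, a microfibril gene, with 55.7, 87.1 and 55.5 FPKM. The collagen gene Col1a1 (183, 218 and 163 FPKM) and the decorin gene Dcn (117, 125 and 109 FPKM) were the most abundant. Of 8 endothelial markers, 6 were below wild type in the double mutant (median -0.08) and 7 in the triple mutant (median -0.29), and the list summed to 561, 553 and 482 FPKM. Over all tested genes, 6588 of 13034 and 6542 of 12986 were below wild type. No endothelial marker was called in these 2 comparisons, beside 2.65% and 1.52% of all tested genes. Cdh5 (204, 218 and 188 FPKM) and Pecam1 (172, 159 and 144 FPKM), both endothelial adhesion genes, were the most abundant, and Flt1, a VEGF receptor gene, had the widest difference (32.1, 27.2 and 23.5 FPKM). The 8 mural cell markers summed to 578, 598 and 603 FPKM, and for triple against double mutant the authors' deposited table called Acta2 higher (q = 0.0066) and Kcnj8 lower (q = 0.0114). That is 1 higher and 1 lower of 8 tested, beside 1.25% of all tested genes called. Rgs5, a pericyte gene, was the most abundant (233, 272 and 213 FPKM). All 8 cardiomyocyte markers were marked as having too many fragments in every comparison, and 7 are listed at 0 in each group. Tnni3 is listed at 0 in both mutants only, so the list gives no comparison. Sex-linked genes differed as well: Ddx3y, on the Y chromosome, had 4.82 FPKM in the wild type, 13.99 FPKM in double mutants and 10.02 FPKM in triple mutants, a 2.90-fold difference between double mutant and wild type and a 2.08-fold difference between triple mutant and wild type in the authors' deposited table (q = 0.0066 for each). Uty, also Y-linked, had 5.61, 15.2 and 10.54 FPKM and was called between double mutant and wild type (q = 0.0066), and Eif2s3y had 10.2, 41.1 and 31.1 FPKM with no call. Xist, the RNA of the inactive X chromosome in females, had 1.21 FPKM in double mutants and 88.2 FPKM in triple mutants, 72.7-fold higher in the authors' deposited table (q = 0.0066). In wild type Xist is listed at 0 because the authors' program marked too many fragments, so that 0 is not a level. Each of the 3 comparisons thus held at least 1 called sex-linked gene. Loci of Bnc1, Igf2, Zeb2, Fn1, Col1a1, Pecam1, Krt80 and Xist are each listed with the same coordinates for another gene. The part of cell makeup and of the sex of the pups in the marker differences, those of Aldh1a2 and Krt18 among them, was not tested. With 1 value per group, sex and genotype cannot be told apart.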

How the data were processed

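RNA of 8 ventricle samples (2 wild type, 3 double mutant, 3 triple mutant) was made into stranded total RNA libraries, per the labels' protocols. The submitters' processing notes name the build mm9 and the tools Cuffdiff 2.2.1, Cufflinks 2.2.1, STAR 2.5.2 and CASAVA 1.8. Which annotation and library normalization were used is not given in the sources used here. Deposited by the authors were 1 FPKM per gene and group and, for each of 3 comparisons, the test score of Cuffdiff, its p-value and q-value, and the log2 fold change. Depth per sample is therefore unknown, no new test over samples could be run, and the spread between samples, which may be technical, lies only inside the authors' p-values. The labels do not say which libraries entered each group.

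The log2 FPKM ratio with no pseudocount returns the deposited log2 fold change (largest difference 4.7215e-05), and Benjamini-Hochberg adjustment over all 3 comparisons together returns the deposited q-values. A q-value under 0.05 was called. Standard errors and 95% intervals were computed as the log2 fold change divided by the normal quantile of the deposited two-sided p-value, with no replicate values behind them. They were first computed from the deposited statistic, and the p-value was taken as the basis after both had been seen, because the statistic runs smaller than a standard normal value. Genes with rows marked as too many fragments (709) were left out of list sums. File loci are given 1-based in mm9. Promoter windows are from RefSeq (GRCm38.p6), and strands from GENCODE M21.

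The members and the 13 gene lists were chosen with earlier results of these data known. All 10 markers are named. In each other list the rule names each called gene, the tested gene with the largest log2 fold change and the 2 most abundant genes. Bnc1, Epcam, Krt5, Wt1os, Cdh1, Tnni3, Aldh1a1, Aldh1a3 and the remaining uroplakins were chosen after their values were seen. Alternatives were another family for the q-value, the 0.1 threshold, FPKM minimums of 1 and 5, pseudocounts of 0.1 and 1, and other scalings. Adjustment and fold changes were tested on simulated data. Computations used Python 3.11.15, pandas 2.3.3 and scipy 1.17.1.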

Additional observations from a re-analysis of the deposited data

How the results depend on the processing

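Aldh1a2 and Krt18 passed the threshold in the double mutant with q-values adjusted within the comparison and with an FPKM minimum of 5. The 0.1 threshold is looser and could not drop them. An FPKM minimum of 1 left all 13034 tested genes in place, so it gave the same q-values as adjustment within the comparison. At the 0.1 threshold 1 marker (Upk3b) was called for triple mutant against wild type. With an FPKM minimum of 5 the median log2 fold change for triple against double mutant was -0.20 in place of 0.13. It then rests on fewer markers. Of 60 log2 fold changes of tested markers under another pseudocount or scaling, 60 moved by less than their standard error and 1 changed sign. The other 30, of markers not tested, have no standard error of their own, and 2 changed sign. Dividing by the sum of FPKM and centring on all tested genes shift every gene of a comparison by 1 constant. The largest constant in size was -0.049, and the smallest standard error of a tested marker was 0.14. Only the pseudocount could therefore have moved a value further. All 3 sign changes came from dividing by the sum of FPKM: Msln for triple mutant against wild type (-0.04 to 0.002), Upk1b for triple against double mutant (-0.02 to 0.03) and Krt19 for double mutant against wild type (0.001 to -0.01). The untested Krt8 in the double mutant was at -0.26 with a pseudocount of 1 and -0.86 without. In a reading added after seeing the data, the deposited statistic was taken as a standard normal value. It called 0 markers for double mutant against wild type and 9 of all 13034 genes. The median size of the statistic was 0.36 to 0.49, below the 0.67 of a standard normal, so this reading is stricter than the deposited p-values, and how those were made from it is not stated in the labels. The standard errors used for these moves are those from the p-values, chosen after seeing the data.

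No paired analysis was possible because the file gives group values and none per sample, although the groups share replicate letters. No sample was left out in turn, since that needs values per sample. Low FPKM limits Upk1b, Msln and Krt8, which the authors did not test.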
